A study of Homo sapiens with 6 samples.

Results

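The response described here is that of KARPAS-422, a human diffuse large B-cell lymphoma line, to knockdown of EZH2. Its members are the 4 arrays titled for this line, out of 6 in the series. Of these, 2 came from cells given a hairpin against EZH2 (shEZH2) and 2 from cells given a non-targeting hairpin (shNTC), with RNA from day 10 of knockdown per the labels. The other 2 arrays are 1 per arm of Pfeiffer, a second lymphoma line, and enter only where the lines are compared. Each sample was hybridised to 1 Affymetrix HG-U133 Plus 2.0 array, and all values below are log2 MAS5 signals, with every difference taken as shEZH2 minus shNTC. Both arms shared the medium with 10% serum, polybrene at 8 µg/ml, 2 days with lentivirus and 2 days of puromycin at 1 µg/ml. The labels call the arrays biological replicates without saying whether they came from separate infections, so each p-value measures only the spread between these arrays. One hairpin stands for each arm and one line for the disease, so an effect of this hairpin sequence cannot be told apart from an effect of EZH2 loss.

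EZH2 is the methyltransferase of Polycomb repressive complex 2, which places methyl marks on lysine 27 of histone H3 and keeps the marked genes silent. In normal B cells it is highly expressed in the germinal centre, where it holds back cell cycle brakes and differentiation genes, and KARPAS-422 is known to carry a gain-of-function mutation in it. A loss of the enzyme is therefore known to raise marked genes directly, while genes that fall are usually reached through other genes.

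The hairpin oligonucleotides are shown because they define the arms. Capitals mark the sense stretch of 21 bases, which the rest of the oligonucleotide repeats as its reverse complement after a loop of 6 bases.
shNTC: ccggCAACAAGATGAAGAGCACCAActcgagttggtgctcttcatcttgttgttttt
shEZH2: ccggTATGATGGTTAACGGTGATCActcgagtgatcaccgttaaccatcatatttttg

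EZH2 itself fell. Its probe set read 11.71 and 11.57 with the control hairpin and 10.52 and 10.55 with the EZH2 hairpin, and the arms did not overlap. The difference was -1.11 (SE 0.10, n = 2 per arm, limma adjusted p = 4.81e-04), which left a share of 0.463 of the control signal, and it held its call in each of the 14 alternatives that kept its probe set. B cell markers were present: 11 of 11 measured ones lay above the filter on dim signals, among them CD79B, a chain of the B cell receptor complex.

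The arrays resembled each other closely within arms, with r = 0.983 between the shNTC arrays and 0.986 between the shEZH2 arrays across 11910 genes, against 0.946 to 0.950 across arms. Genes are not independent replicates, so no p-value belongs to these correlations. The ACTB control probe sets, whose 3' minus 5' log2 signal reads RNA integrity, gave 0.0593 and 0.0830 in shNTC and 0.138 and 0.175 in shEZH2. The same reading of GAPDH gave -0.182 and -0.158 against -0.169 and -0.241, with arms that overlapped. The ACTB values separated the arms, and their part in the results below was not tested. With 4 arrays, precision rests on 2 residual degrees of freedom and 5.69 prior ones that limma borrows across genes.

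Knockdown moved a large part of the measured genes. Of 11910 genes tested, 1862 were called higher (15.6%) and 1723 called lower (14.5%) at an adjusted p below 0.05, so 30.1% in all. The arms of all 3585 called genes were free of overlap, a pattern that 32.8% of all genes showed upward and 35.1% downward with or without a call. The sizes differed by direction: 685 of the higher genes passed 2-fold and 80 passed 3 log2 units, against 111 and 0 of the lower genes. The median difference was 0.81 among genes called higher, -0.49 among genes called lower and -0.02 over all genes. For 165 of the higher genes both shNTC arrays lay below the median of all signals and both shEZH2 arrays above it. The reverse held for 49 of the lower genes. Such a gene entered the test only through its high arm, so it had to differ, and its values are a description. Among the genes named below these are ACER2, BMPR2, CD72, GBP1, GNB4, H2AC6, IFIH1, IFNB1, PCDH19, RIN2, TNFSF13B, ZBP1, ZNF595 and ZNF703 of the higher genes and ABCA3, DNAJC6, KREMEN2, LINC03027, MORN1, SLCO4A1 and STPG3-AS1 of the lower ones.

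**Figure D1:**
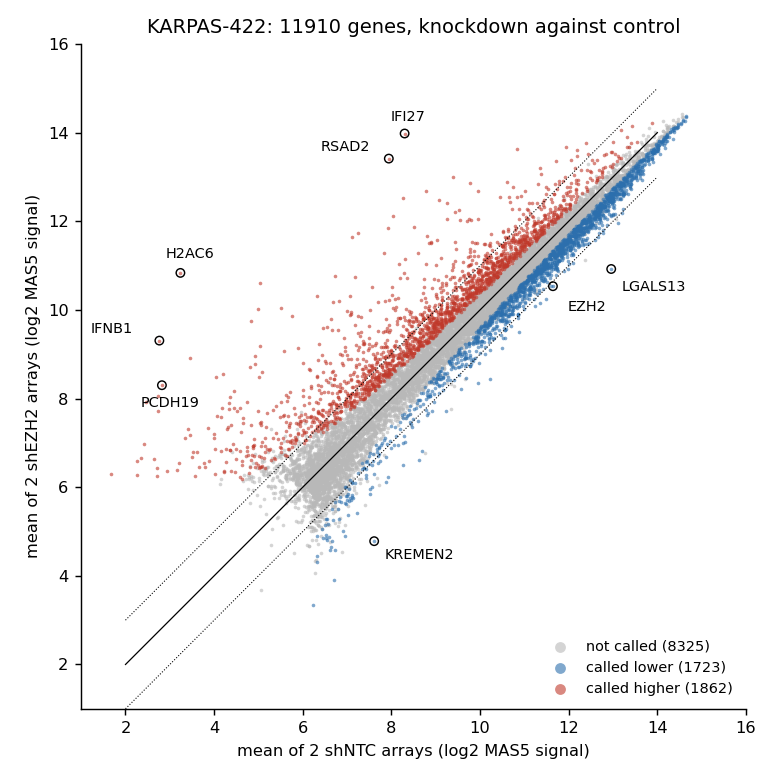
Mean log2 MAS5 signal of the 2 shEZH2 arrays (vertical axis) against that of the 2 shNTC arrays (horizontal axis) for 11910 genes, 1 point per gene, with 1862 called higher in red and 1723 called lower in blue. The solid line marks equal signal and the dotted lines 1 log2 unit either way: genes called higher reach far above the upper line, such as IFI27 and H2AC6, while most called lower lie between equal signal and the lower line, which 111 of them pass.

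The counts depended on the shEZH2 arrays. Without replicate 1 of shEZH2 the calls were 704 higher and 718 lower, and without replicate 2 they were 760 and 624. Leaving out either shNTC array kept 1580 and 1786 higher and 1243 and 1241 lower. Centring each array on its median moved the median of all genes to -0.14 and the split to 1424 higher and 2792 lower, so 33.8% of called genes were higher in place of 51.9%. The direction of list medians below is read against this shift. Unless stated beside it, a gene given below with a difference held its call without any one array and after each of 3 other scalings, which does not extend to another choice of probe set.

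Signal level and direction went together. With genes split by mean signal into 5 equal groups, in the brightest group 37.0% were called lower and 9.99% higher, with a median difference of -0.20, while in the next to dimmest group 4.53% were called lower and 20.7% higher, with a median of 0.14. Cyclic loess, which removes a trend with signal between arrays, brought the brightest group to 19.2% lower and 17.3% higher. Groups of bright genes that fell are therefore given with their loess values.

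**Figure D2:**
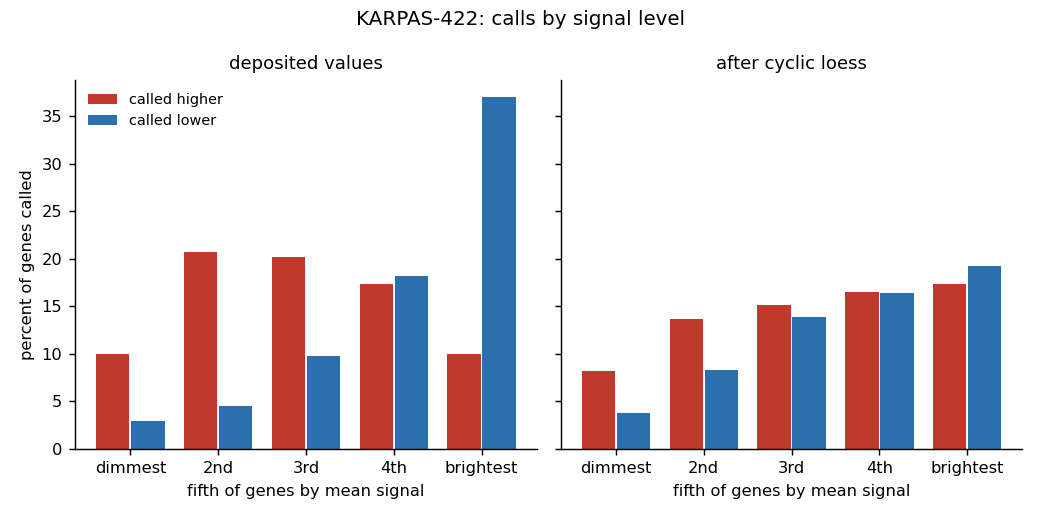
Percent of genes called higher (red) and lower (blue) in each of 5 groups of 2382 genes by mean signal, on the deposited values (left) and after cyclic loess (right). On the deposited values the lower calls climb to 37.0% in the brightest group, and after loess they reach 19.2% there.

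The 20 largest rises included many genes known from the antiviral response. IFI27, an interferon-induced protein of mitochondria, read 8.52 and 8.07 in shNTC and 14.07 and 13.89 in shEZH2, a difference of 5.68 (SE 0.16, adjusted p = 2.80e-06) or 51.3 times the control signal. RSAD2, the antiviral enzyme viperin, read 8.02 and 7.86 against 13.49 and 13.34, a difference of 5.47 (SE 0.12, adjusted p = 1.26e-06). IFIH1, the sensor of double-stranded RNA known as MDA5, read 4.56 and 5.52 against 10.51 and 10.70. In each of these genes both shEZH2 arrays lay far above both shNTC arrays, and the replicates of an arm differed by less than 1 log2 unit. IFNB1, which encodes interferon beta, read 1.92 and 3.61 in shNTC and 8.97 and 9.65 in shEZH2. Its control signal was too dim to size the change, which was 6.54 on the deposited scale and 4.07 with 32 added to each linear signal. XAF1, a pro-apoptotic partner of the inhibitor XIAP, went from 8.22 and 8.28 to 12.62 and 12.44. ZBP1, a sensor of Z-form nucleic acid, went from 5.13 and 4.53 to 9.98 and 9.53. USP18, the protease that removes ISG15 from proteins, rose by 4.07, IFIT2, which binds viral RNA, by 4.49, IFI44L by 3.89, RTP4 by 4.04 and the GTPase GBP1 by 5.44. The shNTC and shEZH2 arrays were apart in all of them.

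The rest of the 20 largest had other or mixed roles, in a split made from general knowledge and not from a list. H2AC6, a replication-type histone H2A gene, read 2.51 and 3.97 in shNTC and 10.86 and 10.81 in shEZH2, the widest gap of the 20. Its difference was 7.60 on the deposited scale and 5.45 with 32 added, and near-identical histone genes can share its probes. MPEG1, the pore-forming perforin-2 of phagocytes, went from 7.20 and 7.03 to 11.88 and 11.42. RIN2, an exchange factor for the endosomal GTPase Rab5, went from 4.99 and 5.0 to 10.10 and 9.95, with replicates nearly equal in both arms. RASSF6, a Ras-association protein of the Hippo and apoptosis pathways, went from 8.10 and 7.73 to 11.84 and 11.86, or 15.3 times the control signal. LGALS3BP, a secreted binding partner of galectin-3 that interferon is also known to induce, went from 9.10 and 9.02 to 12.62 and 12.35. RABGAP1L, a GTPase-activating protein for Rab proteins, rose by 3.63, the zinc finger gene ZNF595 by 4.53, ABAT, which breaks down GABA, by 3.99 and the copine gene CPNE5 by 4.10. On the probe set left for ABAT without _x_at and _s_at ones the difference was 0.69 and not called (adjusted p 8.26e-08 to 0.0895 over its alternatives). The shNTC arrays of CPNE5 stood far apart at 6.65 and 4.86, and its call held without either.

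**Figure D3:**
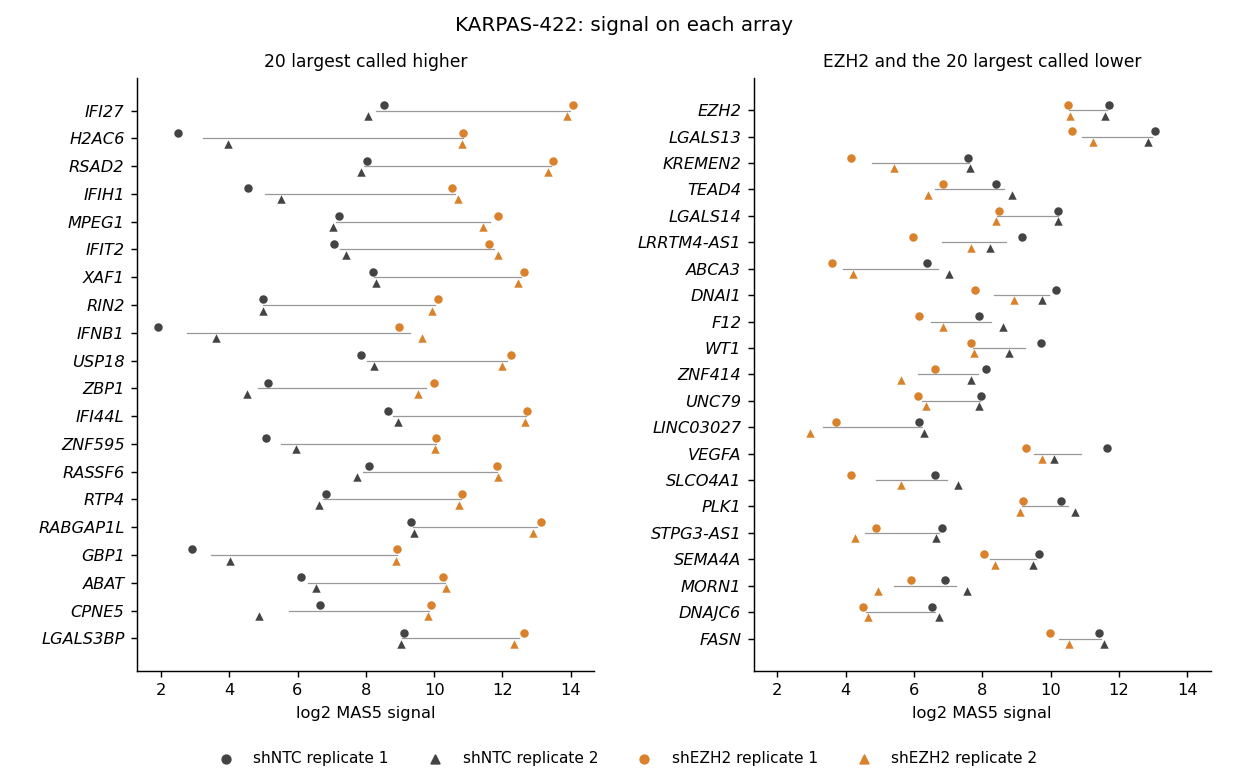
Log2 MAS5 signal on each array for the 20 largest genes called higher (left) and for EZH2 and the 20 largest called lower (right), ordered by difference after 32 was added to each linear signal. Grey symbols are shNTC and orange ones shEZH2, circles replicate 1 and triangles replicate 2, and the grey line joins the arm means: the arms are apart in every gene, by more on the left.

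Promoters of the genes that rose held the letters of the interferon-stimulated response element in a larger share than those of other genes, as a description with no test. Promoter sequence (250 bases before to 50 after the start) came from RefSeq, build GRCh38.p14, and matched 9716 of the genes tested. The core searched, on both strands, was GAAA, any 2 bases and GAAA again, which 2.92% of these promoters and 3.65% of all 27305 promoters of the RefSeq table held. Among genes called higher the share was 7.66%, among those at least 2-fold higher 13.3% and among the 67 promoters of genes at least 3 log2 units higher 25.4%. Genes called lower had it in 2.40%, those at least 2-fold lower in 3.30% and uncalled genes in 1.98%. A match is a description of letters and not of binding.

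CpG content ran the other way. The median ratio of observed to expected CpG was 0.835 over all promoters, 0.803 for genes called higher, 0.749 at 2-fold and 0.560 at 3 log2 units. For genes called lower it was 0.880, but 0.786 for the 91 promoters of genes at least 2-fold lower. A lower ratio thus went with larger changes in both directions. The letters TATAAA, the core site of the TATA-binding protein, stood in 5.96% of all promoters and 10.3% of those at least 2-fold higher. Promoters of genes called lower held them in 4.74%, and those of genes at least 2-fold lower in 6.59%. Either of 2 E2F forms (TTTCCCGC or TTTGGCGC), the site of cell cycle factors, was held by 3.76% of all promoters, 5.49% of genes called lower and 3.20% of genes called higher. All motifs were read on both strands, and the first E2F form can overlap the interferon core, since it ends in GAAA on the other strand.

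**Figure D4:**
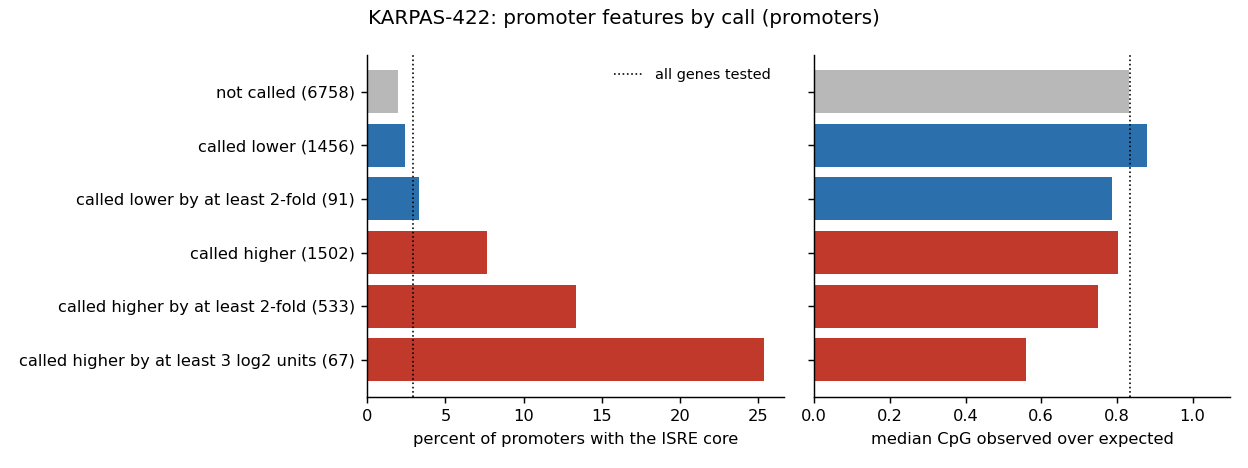
Left, percent of promoters that hold the interferon-stimulated response element (ISRE) core, and right, median observed over expected CpG, for genes grouped by call, with the number of promoters in brackets and all genes tested as the dotted line. The share with the core reaches 25.4% and the CpG ratio falls to 0.560 in genes at least 3 log2 units higher.

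The promoters of RTP4, LGALS3BP and RASSF6 are printed because all 3 genes stand among the largest rises while their promoters differ in this core. RTP4 lies on chromosome 3 (chr3:187368135-187368434, plus strand), LGALS3BP on chromosome 17 (chr17:78979874-78980173, minus strand) and RASSF6 on chromosome 4 (chr4:73620582-73620881, minus strand). Capitals mark matches to that core.
RTP4: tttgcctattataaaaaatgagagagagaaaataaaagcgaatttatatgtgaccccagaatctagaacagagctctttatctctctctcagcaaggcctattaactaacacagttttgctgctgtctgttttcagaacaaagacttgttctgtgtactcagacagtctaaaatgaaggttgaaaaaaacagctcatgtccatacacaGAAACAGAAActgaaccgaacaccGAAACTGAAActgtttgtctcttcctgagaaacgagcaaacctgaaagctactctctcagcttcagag
LGALS3BP: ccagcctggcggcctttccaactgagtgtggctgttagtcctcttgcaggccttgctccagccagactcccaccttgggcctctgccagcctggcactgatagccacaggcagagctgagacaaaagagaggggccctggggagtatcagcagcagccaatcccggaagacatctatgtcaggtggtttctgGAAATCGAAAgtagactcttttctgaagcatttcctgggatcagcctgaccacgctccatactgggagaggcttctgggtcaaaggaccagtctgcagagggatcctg
RASSF6: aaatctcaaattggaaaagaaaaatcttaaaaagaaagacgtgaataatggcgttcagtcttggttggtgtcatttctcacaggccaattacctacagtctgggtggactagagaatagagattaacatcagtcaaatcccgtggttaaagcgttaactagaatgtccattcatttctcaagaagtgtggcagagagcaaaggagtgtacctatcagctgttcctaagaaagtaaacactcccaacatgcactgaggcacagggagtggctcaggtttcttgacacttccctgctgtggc
RTP4 held 2 matches, LGALS3BP 1 and RASSF6 0, although RASSF6 rose by 3.94 and LGALS3BP by 3.42. Of the other largest genes with a promoter in the table, IFI27, IFIH1, IFI44L and GBP1 held the core, while H2AC6, RSAD2, XAF1, IFNB1, ZNF595, RABGAP1L, ABAT and CPNE5 did not. MPEG1, IFIT2, RIN2, USP18 and ZBP1 had no entry.

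The largest falls were smaller and of mixed function. LGALS13 and LGALS14 encode galectins known from the placenta. LGALS13 read 13.06 and 12.85 in shNTC and 10.62 and 11.22 in shEZH2, a difference of -2.04 (SE 0.18, adjusted p = 4.27e-04), and LGALS14 read 10.23 and 10.20 against 8.48 and 8.39, a difference of -1.78 (SE 0.13). Both were bright in the controls and fell on both shEZH2 arrays, but the genes are close copies and probes could be shared. KREMEN2, a receptor that dampens Wnt signalling, read 7.59 and 7.63 against 4.15 and 5.41, a difference of -2.83, or -1.90 with 32 added. TEAD4, a transcription factor of the Hippo pathway, went from 8.40 and 8.86 to 6.83 and 6.40. UNC79, part of the sodium leak channel complex, fell by 1.70, the semaphorin SEMA4A by 1.36, the mitotic kinase PLK1 by 1.34 and the fatty acid synthase FASN by 1.23. DNAI1, a dynein chain of motile cilia, fell by 1.59 and held these calls, though not without the intensity trend.

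Each of the other 11 of the 20 largest falls lost its call without at least 1 of the arrays. ABCA3, a lipid transporter, read 6.39 and 7.02 against 3.59 and 4.23, and without shNTC replicate 2 it was -2.48 with an adjusted p of 0.0674 (0.00548 to 0.0674 over its alternatives). F12, coagulation factor XII, was -1.77, and -1.40 without shEZH2 replicate 1 (adjusted p 0.00182 to 0.0605 over its alternatives). VEGFA, the endothelial growth factor, read 11.65 and 10.10 in shNTC and 9.27 and 9.75 in shEZH2, so its control arrays were farther apart than the nearest arrays of the arms. Its difference of -1.36 became -0.59 without shNTC replicate 1 (adjusted p 3.09e-05 to 0.256 over its alternatives). WT1, ZNF414, SLCO4A1, MORN1, DNAJC6, LRRTM4-AS1, LINC03027 and STPG3-AS1 had adjusted p-values up to 0.0701, 0.0588, 0.109, 0.0956, 0.0627, 0.153, 0.0985 and 0.0604 over the fits without 1 array. Without a filter or with the filter over 6 arrays another probe set stood for STPG3-AS1, and its sign turned (0.31).

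Gene lists of immune signalling held many rises. In the ADP-ribosyltransferase list 11 of 18 were called higher and 2 lower, with a median difference of 0.53, where all genes had 15.6%, 14.5% and -0.02. The list is called PARP genes below, though its risers include DTX3L, which is not a PARP gene. PARP14 read 7.22 and 7.13 in shNTC and 10.94 and 10.55 in shEZH2, a difference of 3.58 (SE 0.17, adjusted p = 1.88e-05), and PARP8, PARP12 and PARP15 rose by 1.57, 1.21 and 1.19. SAMD9L, SAMD9 and SAMHD1, which restrict viruses, were the 3 genes tested of the Schlafen and SAMD9 list and all rose, by 3.16, 1.16 and 1.05. In the TRIM family of ubiquitin ligases 11 of 26 rose and 2 fell (median 0.28). TRIM5, known for capsid recognition, read 9.33 and 9.44 against 10.89 and 11.02, TRIM44 rose by 1.05, and the corepressor TRIM28 fell by 0.62 from 11.82 and 11.99 to 11.34 and 11.22. All array values of TRIM28 in shEZH2 lay under those in shNTC.

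Receptors and ligands of innate and adaptive immunity rose in smaller numbers, beside 15.6% called higher and 14.5% called lower over all genes. Of Toll-like receptors and their adaptors 6 of 21 rose and 1 fell (median 0.09). LY96, the partner of Toll-like receptor 4 also called MD-2, read 7.42 and 7.08 in shNTC and 9.90 and 9.81 in shEZH2, a difference of 2.60 (SE 0.17, adjusted p = 9.62e-05). UNC93B1, which carries Toll-like receptors to endosomes, rose by 1.48 and the adaptor MYD88 by 1.07. Of the tumour necrosis factor ligands and receptors 8 of 25 rose and 1 fell (median 0.33). TNFSF13B, the B cell survival factor BAFF, read 5.63 and 5.72 against 8.22 and 7.83, TNFSF15 rose by 1.24, and lymphotoxin alpha (LTA) fell by 0.64. In the list of interleukins and their receptors 4 of 13 rose and 1 fell, among the risers CSF2RB (1.30), the shared chain of the IL-3, IL-5 and GM-CSF receptors, and IL10RA (1.12). The median of that list was 0.13, and -0.07 and -0.01 after quantile and loess scaling. CXCR4, the receptor for CXCL12, read 6.37 and 6.62 against 8.82 and 8.89, a rise of 2.36 (SE 0.20, adjusted p = 3.40e-04), and was 1 of 2 risers among 5 chemokine genes tested. Lectins rose in 4 of 13 genes, with CD72, an inhibitory B cell receptor, going from 4.48 and 4.25 to 8.11 and 7.98 and LGALS1 rising by 1.17. In the SLAM family 2 of 4 rose, CD84 among them from 9.22 and 9.23 to 10.66 and 10.87, and of 8 complement genes 1 rose (12.5%). Without shEZH2 replicate 1 the counts higher were 6 for PARP genes, 8 for TRIM genes, 3 for Toll-like genes and 2 for the tumour necrosis factor list, and without replicate 2 they were 7, 9, 4 and 2. In the 2 fits the interleukin and lectin lists each kept 3 rises, the SLAM list 1 and the complement list 0, and leaving out shNTC replicate 2 gave 2 chemokine falls where all arrays gave 0.

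**Figure D5:**
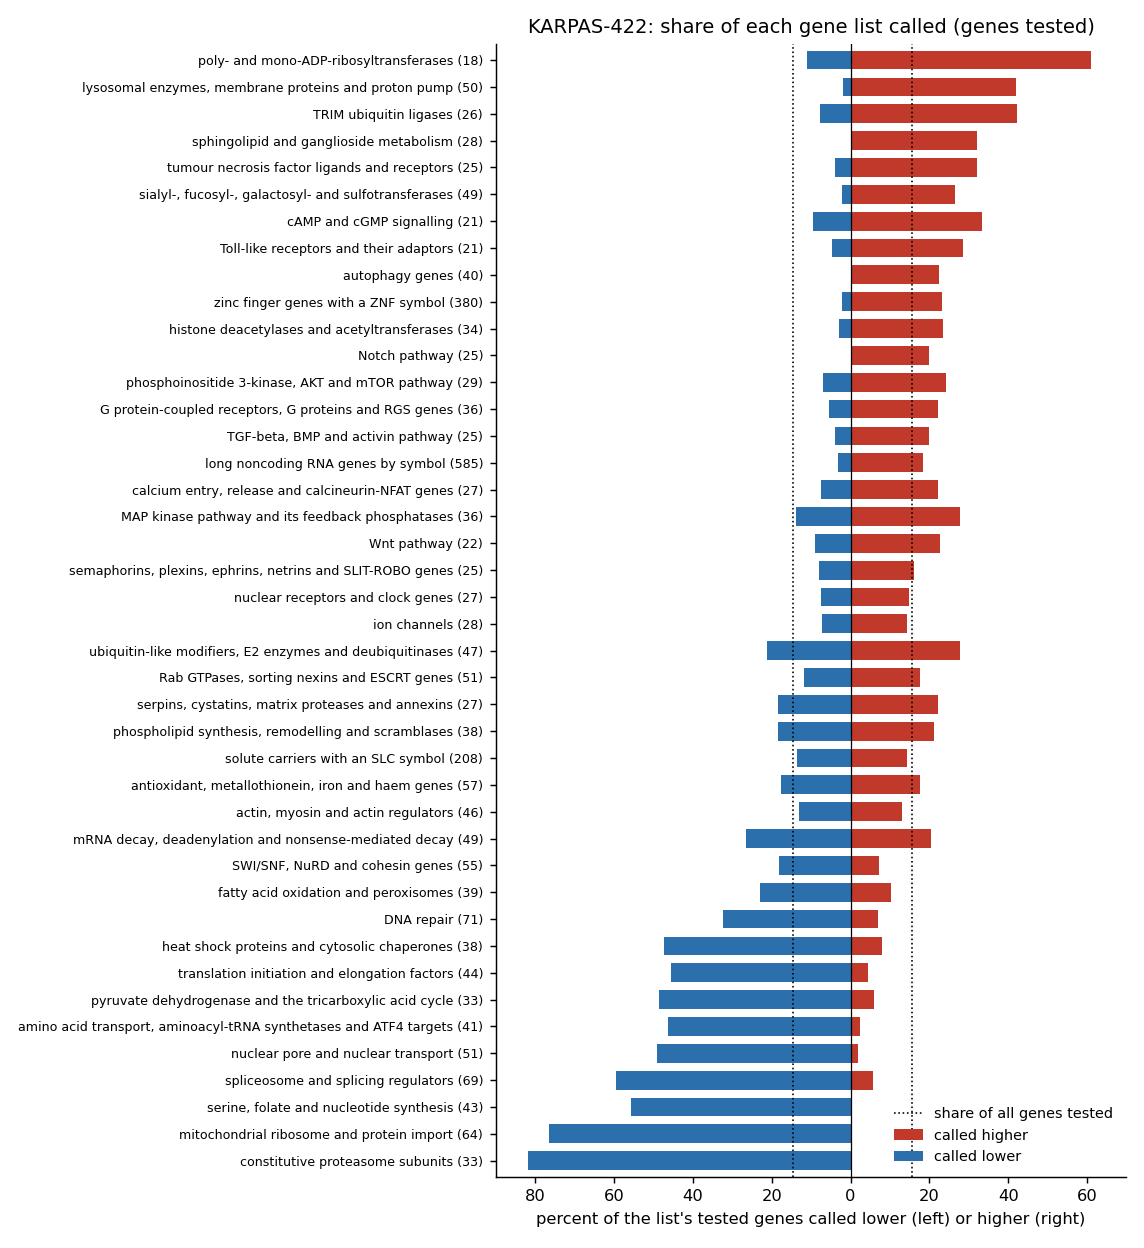
Percent of each gene list's tested genes called lower (blue, left) and higher (red, right) for the lists reported here with at least 18 genes tested, whose number stands in brackets. Dotted lines mark the shares over all genes tested, 14.5% lower and 15.6% higher: ADP-ribosyltransferase, lysosome and TRIM genes reach farthest to the right and proteasome and mitochondrial ribosome genes farthest to the left.

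Intracellular signalling lists held rises of single strong genes. The shares over all genes were 15.6% higher and 14.5% lower. PDE4B, the phosphodiesterase that breaks down cAMP in lymphocytes, read 6.80 and 6.49 in shNTC and 9.79 and 9.80 in shEZH2, a difference of 3.15 (SE 0.18, adjusted p = 4.50e-05). It was 1 of 7 risers among 21 cAMP and cGMP genes, where 2 fell (median 0.17). After median centring 6 genes of this list rose and 6 fell. Of G protein-coupled receptors and their regulators 8 of 36 rose and 2 fell (median 0.08), with the acid-sensing receptor GPR65 going from 8.21 and 8.07 to 10.31 and 10.21. The G protein subunit GNB4 went from a dim 3.61 and 4.52 to 7.50 and 7.71. Of calcium genes 6 of 27 rose and 2 fell (median 0.09), RCAN2, a regulator of calcineurin, by 1.94. In the MAP kinase list 10 of 36 rose and 5 fell (median 0.12), and 9 rose and 8 fell after median centring. RASSF4 rose by 1.55 beside RASSF6. Of the phosphoinositide 3-kinase and mTOR genes 7 of 29 rose and 2 fell (median 0.04). SESN3, a sestrin that restrains mTORC1, read 9.04 and 9.04 against 11.53 and 11.61, a rise of 2.53 (SE 0.11, adjusted p = 1.30e-05), PIK3IP1, an inhibitor of the kinase, rose by 1.27, and RICTOR, a subunit of mTORC2, by 0.99. All these genes had both shEZH2 arrays above both shNTC arrays. Median centring took the medians of the G protein, calcium and phosphoinositide lists to -0.05, -0.04 and -0.08, beside its median over all genes of -0.14. Without shEZH2 replicate 1 the counts higher were 4, 5, 3, 6 and 4 for the cAMP, G protein, calcium, MAP kinase and phosphoinositide lists, and without replicate 2 they were 4, 5, 3, 7 and 4, while the 5 MAP kinase falls became 0 in both fits and 2 without shNTC replicate 2.

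Several lists of the cytoskeleton and of developmental pathways were called about as often as all genes, of which 15.6% were higher and 14.5% lower. Of actin and myosin genes 6 of 46 were higher and 6 lower, with 5 and 12 after median centring and 8 and 3 after loess. CORO1C, a coronin, rose from 9.85 and 9.81 to 11.62 and 11.43. In the TGF-beta and BMP list 5 of 25 rose and 1 fell (median 0.17), among them receptors of both classes. BMPR2 read 6.08 and 5.92 against 8.10 and 8.02 and TGFBR1 9.32 and 9.53 against 11.13 and 11.08. ID2, an inhibitor of helix-loop-helix factors, rose by 1.55. Wnt pathway genes rose in 5 of 22 and fell in 2 (median 0.17), with the receptors FZD3 (1.25) and LRP6 (1.01) higher and KREMEN2 lower. Notch genes rose in 5 of 25 (20%) and fell in 0 (median 0.05, and -0.08 and -0.02 after median centring and loess). With median centring 3 of them fell. Of the semaphorins, ephrins and their receptors 4 of 25 rose (16%) and 2 fell (median -0.08), PLXNC1, a semaphorin receptor, by 1.91. Of 11 cadherins 1 was called: PCDH19, a protocadherin of the nervous system, read 2.77 and 2.87 in shNTC and 8.28 and 8.32 in shEZH2. Its replicates lay close together in both arms, and the difference was 5.48 on the deposited scale and 3.15 with 32 added. Without shEZH2 replicate 1 or 2 the counts higher were 3 and 3 for the TGF-beta list, 3 and 2 for the Wnt and for the Notch list alike, and 1 and 1 for semaphorins and ephrins, and the actin falls numbered 1 and 2. Without shNTC replicate 1 the actin falls numbered 1 and the Wnt rises 3.

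Lysosome genes formed one of the broader rises. Of 50 tested 21 rose and 1 fell, with a median of 0.32, and the count higher was 13 and 12 without shEZH2 replicate 1 or 2. PSAP, the precursor of the saposins that help degrade sphingolipids, read 10.92 and 11.11 in shNTC and 12.70 and 12.66 in shEZH2, a difference of 1.67 (SE 0.10, adjusted p = 5.67e-05). LAMP3, a lysosomal membrane protein of dendritic cells, went from 11.83 and 11.58 to 13.44 and 13.26, and the cathepsin CTSO rose by 2.02 and SCARB2, the receptor that sorts glucocerebrosidase, by 1.61. Sphingolipid genes rose in 9 of 28 and fell in 0 (median 0.24). After median centring 4 rose and 4 fell, and after quantile and loess scaling 5 and 6 rose and 0 fell. SGPP1, which dephosphorylates sphingosine 1-phosphate, rose by 0.66 on bright arrays, from 12.55 and 12.42 to 13.12 and 13.17. Autophagy genes rose in 9 of 40 and fell in 0 (median 0.17, with 8 higher and 3 lower after median centring), among them RUBCN by 0.69. Both of these counts rested on both shEZH2 arrays: sphingolipid rises numbered 2 and 1 and autophagy rises 2 and 2 without replicate 1 or 2. Rab GTPases, sorting nexins and ESCRT genes were higher in 9 of 51 (17.6%) and lower in 6 (11.8%), near the 15.6% and 14.5% over all genes, with 7 and 10 after median centring. RAB8B rose by 1.29 and CHMP5, an ESCRT subunit, by 0.61. Glycosyl- and sulfotransferases rose in 13 of 49 and fell in 1 (median 0.33), and in 7 and 8 without shEZH2 replicate 1 or 2. EXT1, which builds heparan sulfate, read 7.24 and 7.37 against 9.82 and 9.16, B3GNT5, which starts lacto-series glycolipids, rose by 1.53 and GCNT2, the I-branching enzyme, by 1.22. Phospholipid genes split into 8 of 38 higher and 7 lower, with the scramblase PLSCR1 rising from 12.28 and 12.08 to 13.68 and 13.54. Leaving out shEZH2 replicate 1 or 2, the Rab list had 3 and 4 rises and 1 and 2 falls and the phospholipid list 2 and 4 rises and 3 and 1 falls. Without shNTC replicate 1 the Rab rises numbered 4, and without shNTC replicate 2 the phospholipid falls numbered 4.

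Mitochondrial and biosynthetic lists leaned down. Genes of the mitochondrial ribosome and protein import were called lower in 49 of 64 and higher in 0, with a median of -0.44, against 14.5% and -0.02 over all genes. After loess 38 of 64 were lower with a median of -0.39, beside 19.2% of the brightest group of genes. TIMM50, a subunit of the inner membrane translocase, read 11.98 and 11.94 in shNTC and 11.18 and 11.19 in shEZH2, a difference of -0.78 (SE 0.09, adjusted p = 0.00135), TOMM40, the outer membrane pore, fell by 0.77 and the ribosomal protein MRPS15 by 0.67. Each of these falls was under 2-fold. Without _x_at and _s_at probe sets TIMM50 was -0.23 and MRPS15 -0.39, and neither was called. In the tricarboxylic acid cycle list 16 of 33 fell and 2 rose (median -0.29, and -0.15 after loess with 10 lower). OGDH, a subunit of the oxoglutarate dehydrogenase, fell by 0.98, the transaminases GOT1 and GOT2 by 0.84 and 0.65 and citrate synthase (CS) by 0.73, from 12.78 and 13.03 to 12.19 and 12.15. Fatty acid oxidation genes split, 9 of 39 lower and 4 higher. The enoyl-CoA isomerases moved apart there: ECI1 fell from 10.63 and 10.45 to 9.54 and 9.64, while ECI2 rose from 7.43 and 7.67 to 8.76 and 8.72. ACOT7 and ACAA2 fell by 0.75 and 0.60. In the fits without shEZH2 replicate 1 or 2 this list had 4 and 3 falls and 2 and 1 rises.

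Serine, folate and nucleotide synthesis genes were lower in 24 of 43 and higher in 0 (median -0.39, and -0.30 with 19 lower after loess). Of all genes 14.5% were called lower and 15.6% higher, and after loess 19.2% of the brightest group were lower. GMPS, which makes GMP, read 12.65 and 12.71 against 11.80 and 11.67, although the mean of its probe sets gave -0.19 with no call, and the nucleoside transporter SLC29A1 fell by 0.97. Amino acid transport, tRNA synthetase and ATF4 target genes were lower in 19 of 41 and higher in 1. Their median was -0.60, but -0.26 without shNTC replicate 1 and -0.90 without shNTC replicate 2, with 10 and 31 calls lower, so the control arrays disagreed on this list. IARS2, the mitochondrial isoleucyl-tRNA synthetase, did not share that gap, with 12.76 and 12.74 against 11.87 and 11.97. When shEZH2 replicate 1 or 2 was left out, the counts lower were 23 and 23 for the mitochondrial list, 10 and 9 for the tricarboxylic acid cycle, 13 and 14 for serine and nucleotide genes and 4 and 2 for the amino acid list.

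Solute carriers and antioxidant genes were called about as often as all genes. Of 208 solute carriers 30 rose (14.4%) and 28 fell (13.5%), beside 15.6% and 14.5% over all genes (median -0.04), and 25 rose and 44 fell after median centring. The monocarboxylate transporter relative SLC16A4 read 8.83 and 9.17 in shNTC and 10.88 and 11.16 in shEZH2, the choline transporter SLC44A1 fell by 1.03 and the mitochondrial dicarboxylate carrier SLC25A10 by 0.96. Of antioxidant, metallothionein, iron and haem genes 10 of 57 rose and 10 fell, and after median centring 8 rose and 23 fell. CYBB, the catalytic subunit of the phagocyte oxidase, rose from 8.02 and 7.93 to 9.54 and 9.57, and BLVRB, a biliverdin reductase, by 1.80. GCLM, a subunit of the enzyme that starts glutathione synthesis, fell from 11.78 and 12.02 to 10.90 and 10.87. With shEZH2 replicate 1 or 2 left out the solute carriers called were 8 and 10 higher and 13 and 8 lower, and the antioxidant genes 5 and 8 higher and 6 and 3 lower. Without shNTC replicate 2 the antioxidant falls numbered 5.

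Protein turnover and folding showed a similar downward list, where 14.5% of all genes were called lower and 15.6% higher. On the probe set that stood for each gene, all 33 constitutive proteasome genes had a difference below 0, from -0.69 to -0.11. Of these 27 were called lower (median -0.39). Other probe sets did not all follow. PSMA5 had a dimmer one called higher (230300_at, 1.45) beside one called lower (201274_at, -0.35). PSMB2 likewise had 231323_at at 1.49 and 200039_s_at at -0.38. Whether these 4 calls held without 1 array is not given here. After loess 16 of the 33 genes were called lower and their median was -0.25. PSMG1, an assembly chaperone, read 12.51 and 12.54 in shNTC and 11.76 and 11.92 in shEZH2, and the subunits PSMC3, PSMD12 and PSMD6 fell by 0.61, 0.60 and 0.54. PSMD12 averaged over its probe sets was -0.20 and not called. Heat shock proteins and chaperones fell in 18 of 38 and rose in 3 (median -0.30). After loess 9 of 38 were lower (median -0.15), not far above the 19.2% of the brightest group of genes. The HSP90 partners FKBP4 and STIP1 fell by 0.92 and 0.79. Without _x_at and _s_at probe sets FKBP4 was -0.83 and not called. Ubiquitin-like modifiers and their enzymes split into 13 of 47 higher and 10 lower. HERC6, a ligase induced by interferon, rose from 8.76 and 8.83 to 11.77 and 11.57, UBE2L6, the conjugating enzyme for ISG15, by 1.08 and the deubiquitinase CYLD by 1.38, while UBE2T, which serves the Fanconi pathway, fell by 0.57. Without shEZH2 replicate 1 or 2 the counts lower were 16 and 8 for the proteasome and 12 and 14 for chaperones, and the ubiquitin counts were 5 and 8 higher and 6 and 4 lower. Without shNTC replicate 2 the ubiquitin rises numbered 8.

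RNA processing, translation and genome maintenance leaned down too, beside 14.5% lower and 15.6% higher over all genes. After loess 19.2% of the brightest group of genes were lower. Spliceosome and splicing genes fell in 41 of 69 and rose in 4 (median -0.32), and after loess in 20 with 7 higher (median -0.18). The 4 risers included the alternative splicing factors RBFOX2 (7.85 and 7.88 against 9.42 and 9.11) and MBNL2 (1.15) and the kinase CLK1 (0.87), while PTBP1 fell by 0.54. With the mean of their probe sets MBNL2 (0.59) and PTBP1 (-0.42) were not called. Translation factors fell in 20 of 44 and rose in 2 (median -0.29, and -0.11 with 14 lower after loess). EIF4B, a helicase cofactor, fell from 12.69 and 12.62 to 11.57 and 11.71, EIF5A by 0.71 and EIF2B3 by 0.75, and EIF2AK2, the double-stranded RNA kinase PKR, rose from 11.45 and 11.55 to 12.79 and 12.74. Nuclear pore and transport genes fell in 25 of 51 and rose in 1 (median -0.25, and -0.21 with 18 lower after loess), with RCC1, the exchange factor for Ran, going from 11.57 and 11.63 to 10.48 and 10.59 and NUP155, AAAS and IPO4 lower by 0.77, 0.90 and 0.79. DNA repair genes fell in 23 of 71 and rose in 5 (median -0.20, and -0.18 after loess), CHEK1, the replication checkpoint kinase, by 0.90 and the ligase LIG1 by 0.76. mRNA decay genes went both ways, 10 of 49 higher and 13 lower, also within 1 family: ZFP36 rose by 0.80 and ZFP36L2 fell by 0.62, and the exonuclease XRN1 rose by 0.69. In the fits without shEZH2 replicate 1 or 2 the counts lower were 23 and 9 for splicing, 15 and 13 for translation and for the nuclear pore alike, 12 and 11 for DNA repair and 4 and 3 for mRNA decay, whose rises became 3 and 5. Without shNTC replicate 1 the falls numbered 23 in splicing and 8 in mRNA decay, and without shNTC replicate 2 they numbered 15 in DNA repair.

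Regulators of chromatin and transcription leaned up in some lists. Over all genes 15.6% were called higher and 14.5% lower. In the next to dimmest group of genes the shares were 20.7% and 4.53%, and 13.6% and 8.31% after loess. The lists here were not matched to genes of like signal. Of histone deacetylases and acetyltransferases 8 of 34 rose and 1 fell (median 0.10), with 6 and 2 after quantile scaling and 6 and 1 after loess. The acetyltransferase CREBBP read 9.72 and 9.74 in shNTC and 11.22 and 11.16 in shEZH2, a difference of 1.46 (SE 0.11, adjusted p = 1.66e-04), the coactivator NCOA1 rose by 1.20, and HAT1, which acetylates new histone H4, fell by 0.60. SWI/SNF, NuRD and cohesin genes fell in 10 of 55 (18.2%) and rose in 4 (median -0.16). The cohesin subunit STAG1 fell by 0.91 and MBD2, which binds methylated DNA, by 0.49, a call lost with the mean of its probe sets (-0.20). Zinc finger genes with a ZNF symbol rose in 88 of 380 and fell in 8 (median 0.22, and 0.06 after quantile scaling). After quantile scaling 61 of these genes rose and 22 fell, and after loess 68 and 13. ZNF595 led the ZNF genes with 5.07 and 5.96 against 10.07 and 10.02, followed by ZNF703 (2.72) and ZNF547 (1.35). Long noncoding RNA genes rose in 107 of 585 and fell in 19, with 72 and 38 after quantile scaling and 79 and 30 after loess. Their median was 0.12, and -0.03 and -0.01 after quantile and loess scaling, so it had no settled sign. LINC01215 rose from 7.98 and 7.43 to 10.35 and 10.00 and FUT8-AS1 from 6.66 and 7.19 to 9.27 and 9.44, although the array does not tell how far an antisense probe reads its partner gene. Nuclear receptor and clock genes rose in 4 of 27 (14.8%), near the share of all genes, and fell in 2, with the estrogen receptor ESR2 higher by 1.26. Serpins, annexins and matrix proteases gave 6 of 27 higher and 5 lower, ADAM19 higher by 1.20. Ion channels gave 4 of 28 higher (14.3%), also near the share of all genes, and 2 lower. When shEZH2 replicate 1 or 2 was left out, the rises numbered 3 and 4 for the acetyltransferase list, 27 and 21 for ZNF genes and 35 and 31 for noncoding RNA genes, and the cohesin and remodelling list fell in 3 and 4, and in 6 without shNTC replicate 2. In the same 2 fits without a shEZH2 array the protease list had 1 and 3 rises and 0 and 1 falls, the nuclear receptor list 3 and 1 rises and the ion channel list 0 and 2.

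Genes called higher also lay next to each other among the genes tested. With 11889 of these in chromosome order and untested genes skipped, 80 runs of at least 3 neighbours were called higher (270 genes). Another 48 runs were called lower (153 genes), and the longest runs had 7 and 5 genes. With 15.6% of all genes called higher and 14.5% lower, some runs would form without any grouping. Their expected number was not worked out, so the counts are a description. The run of 7 lies on chromosome 3 and holds MCCC1, LAMP3, B3GNT5, SNHG33, KLHL6, KLHL24 and YEATS2, with a median difference of 1.08. KLHL6, an adaptor for a ubiquitin ligase in germinal centre B cells, rose from 9.54 and 9.35 to 10.26 and 10.79. Within it MCCC1, SNHG33, KLHL24 and YEATS2 lost their calls without shEZH2 replicate 2, and YEATS2 also without replicate 1, at adjusted p-values up to 0.0624, 0.0610, 0.0551 and 0.0592 over the fits without 1 array, and YEATS2 turned to -0.50 on another probe set. On chromosome 10 the lipase LIPA stands beside IFIT2, IFIT3, IFIT1 and IFIT5 (median 2.78). LIPA, the lysosomal lipase, rose from 11.18 and 10.97 to 12.23 and 12.26, and the IFIT genes by 4.49, 2.78, 3.09 and 2.32. On chromosome 9, IFNB1 lies in a run with ACER2, MLLT3, FOCAD and HACD4 (median 1.53). FOCAD, an adhesion-related protein, rose from 9.45 and 9.30 to 10.95 and 10.86 and HACD4, which elongates fatty acids, by 1.26, while ACER2 (adjusted p up to 0.0861) and MLLT3 (up to 0.0750) did not pass without shEZH2 replicate 1 or 2. On chromosome 6 the histone genes H2BC9 (2.16) and H4C8 (2.10) and the butyrophilins BTN3A2 (1.04), BTN2A2 (0.68) and BTN3A1 (0.79) formed a run. The 3 butyrophilin calls were lost without shEZH2 replicate 2, and those of BTN2A2 and BTN3A1 also without replicate 1. On chromosome 16 the metallothioneins MT1E, MT1F, MT1G, MT1H and MT1X rose by 0.33, 1.07, 0.80, 0.66 and 0.24. These are near-identical copies whose probes can share RNA, and MT1E and MT1X passed neither after median centring nor in any fit without 1 array. Neighbours can share a probe target or a promoter, and how far that bears on the runs was not tested.

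Probe sets without a single gene name took part in the response. Over all 28310 kept probe sets 4214 were called higher (14.9%) and 2798 lower (9.88%). Those with 1 symbol gave 15.0% and 10.7% of 22936, those with several symbols 14.4% and 13.8% of 1149 and those with none 14.6% and 4.52% of 4225. The unnamed ones were dimmer, with a median level of 7.29 against 8.86, and dim genes had few falls in the named class too. Probe set 235456_at, without a symbol, read 8.98 and 8.76 in shNTC and 12.20 and 12.15 in shEZH2, a difference of 3.30 (SE 0.12, adjusted p = 1.17e-05). Probe set 235157_at went from 7.13 and 6.68 to 10.36 and 10.21 and 243271_at from 8.14 and 8.12 to 11.28 and 11.18. Among those with several symbols, 203281_s_at went from 5.79 and 4.71 to 10.22 and 9.85, 226694_at from 8.70 and 8.18 to 11.58 and 11.71, and 231094_s_at fell from 9.99 and 9.80 to 7.89 and 8.33. The arms were apart in all of these. Of them 203281_s_at entered the test only through its shEZH2 arrays, so it had to differ and its values are a description.

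Different probe sets of a gene did not always move alike. Of 5957 genes with several kept probe sets 2750 had a called one, and 69 had probe sets called in both directions. HNRNPC, a pre-mRNA binding protein, showed this: 227110_at fell from 11.48 and 11.26 to 10.79 and 10.77 while 235500_at rose from 4.54 and 4.46 to 6.87 and 6.65. Probe set 235500_at entered the test only through its shEZH2 arrays, so it had to differ and its values are a description. The 69 genes include others of this kind, such as COX7B. ZNF207, a spindle checkpoint protein, fell on 200828_s_at from 13.11 and 13.04 to 12.60 and 12.71 and rose on 229765_at from 7.42 and 7.11 to 8.79 and 8.74. HSPA4, PRDX2, MACROH2A1, WIPF1, GPR107 and ELP2 completed the 8 with the widest gap. In HNRNPC and ZNF207 the falling probe set of the pair was the brighter one, and it stood for ZNF207 in the gene tests, where a still brighter probe set stood for HNRNPC. In those tests the falls of PRDX2 and MACROH2A1 lost their calls without each of the 4 arrays in turn, that of HNRNPC without shNTC replicate 1 or shEZH2 replicate 2, and that of ZNF207 without shEZH2 replicate 1. All 4 lost them after loess, and PRDX2, MACROH2A1 and HNRNPC after quantile scaling.

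Markers of other cell types were few. Of the T and NK cell markers measured, 6 of 13 lay above the filter and 3 fell: CD3D from 11.43 and 11.24 to 10.53 and 10.61, CD3G by 0.64 and CD247 by 0.44. CD3G and CD247 lost the call without shEZH2 replicate 2, and CD247 also without replicate 1, at adjusted p-values up to 0.116 and 0.0657 over the fits without 1 array. CD2, CD4, NKG7, GNLY, KLRD1 and GZMB were below the median of all signals on all 4 arrays. Summed on the linear scale and taken to log2, this list read 13.34 and 13.43 in shNTC and 12.87 and 12.76 in shEZH2. Of myeloid markers 2 of 11 and of stromal, endothelial and epithelial ones 3 of 13 lay above the filter, and none passed the test (ITGAM at -0.76 and VCAN at -0.09, KRT8 at -0.26). DCN, a matrix proteoglycan of fibroblasts, was bright on a probe set of a kind that can bind other transcripts, at 13.71 and 13.60 in shNTC and 13.59 and 13.43 in shEZH2. After median centring DCN was called lower (-0.27, limma adjusted p = 0.0455). Without _x_at and _s_at probe sets another probe set stood for DCN and was called higher (0.69, limma adjusted p = 0.00629). The summed myeloid list read 8.70 and 8.61 against 8.35 and 8.78, the stromal list 13.78 and 13.68 against 13.69 and 13.52 and the B cell list 16.68 and 16.51 against 16.64 and 16.58. The part of the falling T cell markers in the other results was not tested. In these bulk samples, fewer cells of a type and less RNA per cell cannot be told apart.

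The response was set against that of Pfeiffer gene by gene through the interaction of line and hairpin, which takes in all 6 arrays. Pfeiffer gave 1 array per arm, so all of the spread came from KARPAS-422 and the Pfeiffer arrays were assumed to vary like it. Of 13036 genes, 163 had a higher difference in KARPAS-422 (1.25%) and 59 a lower one (0.453%). EZH2 was not among them, with a difference between lines of 0.30 (limma adjusted p = 0.417). With shEZH2 replicate 1 or 2 left out the limma test called 0 genes, with 1914 and 1771 at an unadjusted p below 0.05 against 2277 with all arrays, while without shNTC replicate 1 or 2 it called 389 and 473. The intensity trend mattered as much: without it 1 gene was called.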

How the data were processed

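Total RNA of 6 samples was hybridised to Affymetrix HG-U133 Plus 2.0 arrays, per the labels. The deposited log2 values are MAS5 signals, per the submitters' processing notes, and the linear values have a trimmed mean of 500 on every array. Nothing was rescaled. Dim probe sets were dropped: 2 or more of the 4 KARPAS-422 arrays had to lie above 6.1249, the median of their values, and the brightest kept probe set with 1 symbol stood for a gene. Platform annotation gave 1 symbol to 41091 of 54675 probe sets, several to 1801 and none to 11721, and 62 were controls. Of the probe sets with 1 symbol, 41037 had a gene ID in the RefSeq table, and 0 symbols changed.

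The arms were compared over 4 arrays in limma (version 3.58.1, run under R 4.3.3), whose moderated variances were let vary with signal (eBayes with trend). Tests were two-sided, and p-values were adjusted across the 11910 genes by Benjamini-Hochberg, with 0.05 as the threshold. Probe sets were fitted the same way, and the lines were compared with an interaction in 4 groups over 6 arrays. The procedure was tested on simulated data, in which 200 of 11910 genes were changed, far fewer than were called in the real data. It recovered 57% of changes of 1 log2 unit and 87% of changes of 2, and called 7 unchanged genes.

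Named genes were EZH2, the 20 largest called genes per direction, up to 4 called members per direction of each list, unnamed and ambiguous probe sets, disagreeing probe sets and neighbour runs, ranked with 32 added to each linear signal. The subject, lists and rules were chosen with earlier results of these data known. Alternatives covered scaling, the added constant, the filter, the probe set, the variance model, the samples fitted, the replicate number and each array left out. Same-numbered arrays of the arms had deviations that correlated at r = 0.032 across genes, so the numbers were not taken to pair samples. The number of arrays limits precision. Promoters are RefSeq, GRCh38.p14. One gene list is not reported here.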

Additional observations from a re-analysis of the deposited data

Results flagged for a closer look

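Of 40 genes, EZH2 and the largest changes other than LINC03027, 19 were called different between the lines by the interaction test. The largest changes were chosen by their KARPAS-422 difference, which is part of the contrast tested, so this count is a description and not support. ZBP1 passed the filter over all 6 arrays only through the shEZH2 arrays of KARPAS-422, so its call is a description too. Pfeiffer had 1 array per arm, so the spread behind these calls is that of KARPAS-422 alone. The Pfeiffer difference had the same sign as that of KARPAS-422 in 13 of the 19 and the opposite sign in 6. Of the 6, all but SEMA4A lay below 6.2052, the median of all values of the 6 arrays, on both Pfeiffer arrays. XAF1 read 4.97 in shNTC and 3.20 in shEZH2 there. Of the 13, IFI27, IFI44L, MPEG1 and RSAD2 were below it on both as well. At such dim levels 1 array per arm does not settle the sign or size of a Pfeiffer difference. GBP1 and STPG3-AS1, not called, stood on other probe sets than above. The KARPAS-422 difference exceeded that of Pfeiffer by 6.05 for XAF1 (-1.77 in Pfeiffer), 5.24 for IFIH1 (0.33), 5.20 for ZBP1 (-0.27) and 5.15 for H2AC6 (2.45). For RSAD2 it exceeded it by 5.10, on another probe set than above, which rose by 5.10 in KARPAS-422 and stood at 0.0045 in Pfeiffer. The gap was 4.48 for ZNF595 (0.043 in Pfeiffer), 4.17 for IFI27 (1.51), 4.14 for MPEG1 (0.38), 3.94 for USP18 (0.14) and 3.55 for LGALS3BP (-0.13). It was 3.36 for RTP4 (0.69 in Pfeiffer), 3.18 for RASSF6 (0.76), 3.04 for IFIT2 (1.46), 2.51 for IFI44L (1.38), 2.43 for RABGAP1L (1.20) and 2.12 for ABAT (1.87). For LGALS13, LGALS14 and SEMA4A it was -2.52, -2.31 and -2.23, with 0.48, 0.53 and 0.87 in Pfeiffer. Over all genes 1.25% had a higher and 0.453% a lower difference in KARPAS-422. Without either shEZH2 array the limma test called 0 genes, with 1914 and 1771 at an unadjusted p below 0.05, and without the intensity trend it called 1.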

How the results depend on the processing

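The difference in EZH2 ranged from -1.18 to -1.04 without 1 array. Without 1 array the genes called ranged from 1384 to 3027, the higher ones from 704 to 1786 and the lower ones from 624 to 1243, and probe sets called from 3649 to 5416, 2053 to 3653 and 1596 to 1763. Genes that differed between lines ranged from 0 to 473, 0 to 345 higher and 0 to 128 lower. Without the intensity trend 1790 genes were called (1172 higher, 618 lower), and 1 differed between lines (1 higher, 0 lower, with 1828 at an unadjusted p below 0.05 by limma). Median centring gave 2792 genes and 4612 probe sets lower, and leaving out probe sets ending in _x_at or _s_at gave 981 genes lower. Without a filter 4420 probe sets were called (2804 higher, 1616 lower), and 114 genes differed between lines (94 higher, 20 lower). Where another probe set stood for the gene, signs turned: BTN2A2 (-0.041), YEATS2 (-0.50), DCN (0.69), ELP2 (0.38), HSPA4 (1.38), MACROH2A1 (0.24) and ZNF207 (0.84) without _x_at and _s_at probe sets, and STPG3-AS1 (0.31) with no filter and with the filter over 6 arrays. The mean of a gene's probe sets turned ELP2 (0.33), HNRNPC (0.049), MACROH2A1 (0.35) and ZNF207 (0.58). The cause of the other shifts was not tested. With the replicate number as a block 3839 genes were called (1929 higher, 1910 lower), 3465 of them shared with the fit without it, and 8330 probe sets (4828 and 3502). EZH2 has no value without _s_at probe sets.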
